A study of Mus musculus with 6 samples.

Results

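Signals of the complement C1q chains, complement C3 and its receptor, and the Fc gamma receptors with their signalling chain were examined in mouse soleus, a postural hindlimb muscle. The genes were taken by name from the scanner table: of 10 names, 9 had a row among its 34492 rows, and C1QG is an older name of the gene whose row is called C1QC. The rows were C1qa, C1qb, C1qc, C3, C3ar1, Fcgr1, Fcgr2b, Fcgr3 and Fcer1g. These names were picked with the genotype differences of the same arrays already known, so the differences between genotypes are given as a description, without a test.

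The study compared male mice of 11 months with a knockout of Acta1, the gene of skeletal muscle alpha-actin, and with cardiac actin in its place, labelled Coco/KO, with wild-type mice. Both genotypes carried the strain designation CBB6F1xFVB/n. Each genotype had 3 RNA samples, each a pool of 2 soleus muscles of different mice, and the 6 samples were hybridised to 1 Illumina beadchip. The sources used here do not name the promoter behind the cardiac actin.

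C1q is the recognition protein of the classical complement pathway. It is built from A, B and C chains, binds antibody in immune complexes as well as dying cells, and starts the cascade that cleaves C3. Fc gamma receptors bind the constant part of IgG on the surface of phagocytes. Fcgr1 and Fcgr3 are activating receptors that signal through the Fc receptor gamma chain (Fcer1g), whereas Fcgr2b carries its own inhibitory motif. Tissue macrophages are a main source of C1q and bear most of these receptors, and C3 is made mainly by the liver and also by fibroblasts, fat and immune cells.

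In the reference annotation the C1q genes lie side by side on chromosome 4 in the order C1qb, C1qc and C1qa, with 0 protein-coding genes between neighbours. Fcgr2b, Fcgr3 and Fcer1g share a stretch of chromosome 1, in which Fcgr4 is the 1 protein-coding gene between Fcgr2b and Fcgr3 and 7 lie between Fcgr3 and Fcer1g. C3 is on chromosome 17, C3ar1 on chromosome 6 and Fcgr1 on chromosome 3. The 250 bases before the annotated start are shown for the 2 C1q genes with a window, for Fcgr3, which had the largest difference among these genes, and for Fcer1g, whose signal behaved unlike the others. They come from RefSeq (GRCm38.p6, minus strand, 5′ to 3′), and capitals mark each AGGAAG or its reverse complement CTTCCT, the core bound by ETS factors such as PU.1 of myeloid cells.

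C1qb chr4:136886201-136886450: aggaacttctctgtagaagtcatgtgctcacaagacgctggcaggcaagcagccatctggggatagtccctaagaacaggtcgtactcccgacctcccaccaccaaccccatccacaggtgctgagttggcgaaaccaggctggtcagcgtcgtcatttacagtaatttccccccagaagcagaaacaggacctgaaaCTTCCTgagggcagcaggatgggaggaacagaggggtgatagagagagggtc
C1qc chr4:136892915-136893164: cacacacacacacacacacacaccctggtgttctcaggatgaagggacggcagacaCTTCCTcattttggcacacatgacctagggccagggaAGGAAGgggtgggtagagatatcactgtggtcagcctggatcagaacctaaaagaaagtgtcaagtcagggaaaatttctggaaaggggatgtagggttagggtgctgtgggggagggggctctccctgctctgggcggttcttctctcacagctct
Fcgr3 chr1:171059404-171059653: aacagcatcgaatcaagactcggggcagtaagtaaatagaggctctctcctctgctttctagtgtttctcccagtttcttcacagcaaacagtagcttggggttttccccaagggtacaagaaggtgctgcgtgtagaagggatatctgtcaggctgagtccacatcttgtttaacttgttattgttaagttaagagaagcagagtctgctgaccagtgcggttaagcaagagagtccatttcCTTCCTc
Fcer1g chr1:171234350-171234599: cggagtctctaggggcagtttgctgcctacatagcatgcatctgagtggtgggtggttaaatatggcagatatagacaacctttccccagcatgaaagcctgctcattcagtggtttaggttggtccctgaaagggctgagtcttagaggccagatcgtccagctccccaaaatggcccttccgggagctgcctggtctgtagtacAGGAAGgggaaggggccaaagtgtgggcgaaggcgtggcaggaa

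Windows were found for 8 of the 9 genes, all but C1qa. The core occurred on either strand in 5 of these 8 windows, those of C1qb, C1qc, Fcgr1, Fcgr3 and Fcer1g, and in 29.5% of all 32851 windows of the same length. The longer form GAGGAAG, which contains the core, occurred in C1qc, Fcgr1 and Fcgr3 and in 10.6% of all windows. Fcgr3 has 2 annotated starts, and the first one listed was used. The core lies 7 to 2 bases before the start in Fcgr3, 44 to 39 in Fcer1g and 52 to 47 in C1qb, and C1qc holds it at 194 to 189 and at 157 to 152. A match describes letters in a window and was not tested as a binding site.

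Intensities are given as deposited, on a linear scale with a background level already subtracted, so values near 0 are background. Log2 signals are quantile-normalized after 58.7 units were added, which shrinks differences of dim genes. A row counts as detected at a detection p below 0.05. The targeted gene checked the labels: Acta1 had a log2 signal of 15.46 ± 0.17 (SD, n = 3) in wild-type and 10.86 ± 0.34 in Coco/KO muscle, and cardiac actin (Actc1) had 10.02 ± 0.58 and 12.46 ± 0.40, both without overlap. All 8 slow skeletal muscle markers passed the detection filter, with log2 differences of 0.05 for Myl2, 0.03 for Tnnc1, 0.05 for Mb and 0.04 for Atp2a2, the 4 brightest. Of the 8, 7 lay above 0 and 1 below, and the largest difference was 0.91 (SE 0.21) for Tnni1. Arrays had mean intensities from 330.2 to 470.2, from 11606 to 13071 detected rows, and typically 35 to 36 beads per value (median). The Coco/KO 1 array stood apart on the first principal component (34.4, against -15.5 to 5.48 on the others). Among these genes the Coco/KO 3 array was most often the highest, so both arrays were also left out in turn.

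With limma's adjustment over the table, 18 of 12135 genes (0.148%) were called at an adjusted p below 0.05, of which 8 were higher (0.0659%) and 10 lower (0.0824%) in Coco/KO, and the median log2 difference over all genes was 0.00. Of the 9 rows, 7 passed the filter of detection on at least 3 of 6 arrays, and 0 of these 7 were among the genes called. At an unadjusted p below 0.05 the count was 4 of 7, against 8.21% of all genes. Nothing is read from either count, because the genes were chosen on this contrast. C1qa, C1qb, C1qc, C3ar1 and Fcgr3 lay higher in Coco/KO soleus, and C3 and Fcer1g lay lower, which makes 5 of 7 above 0 against 50.3% of all genes. The median log2 difference of the 7 was 0.41, and it was also 0.41 over all 9 rows. It was 0.20 without the Coco/KO 3 array, 0.66 without the Coco/KO 1 array and 0.19 with a modelled background.

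**Figure D1:**
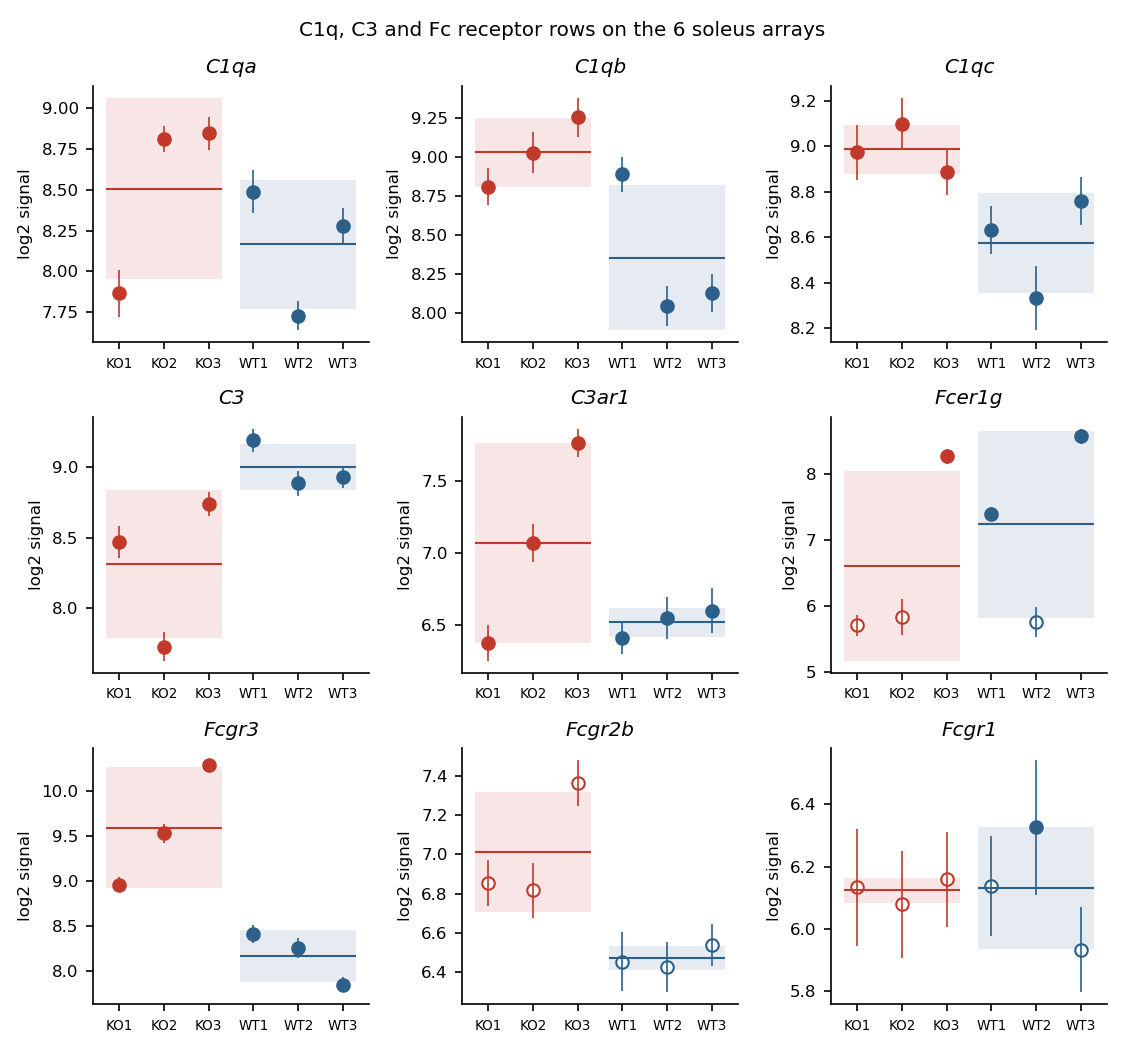
Normalized log2 signal (y axis, a separate scale per gene) of the 9 rows on the 3 Coco/KO (KO, red) and 3 wild-type (WT, blue) arrays. Points carry the bead standard error, open points were not detected, and lines with shading are the group mean ± SD of 3 arrays; Fcgr3 and C1qc separated the genotypes upwards and C3 downwards among the rows that passed the filter, while Fcer1g was at background on 3 arrays.

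C1qa, the A chain, had intensities of 179.1, 290.8 and 515.1 on the Coco/KO arrays and of 244.6, 183.5 and 254.5 on the wild-type arrays. The groups overlapped, with Coco/KO 1 next to the lowest wild-type array. Its log2 difference was 0.34 (SE 0.30, n = 3 per group). This value was 0.17 without Coco/KO 3, 0.66 without Coco/KO 1 and 0.12 without wild-type 2.

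C1qb, the B chain, had intensities of 408.2, 341.5 and 700.7 in Coco/KO and of 339.8, 245.7 and 223.9 in wild-type muscle. On the log2 scale wild-type 1 (8.89) lay above Coco/KO 1 (8.81), so the groups overlapped by 1 array, although the intensities did not overlap. Its log2 difference of 0.68 (SE 0.24), a 1.60-fold higher signal, was the largest of the C1q chains. With a modelled background it was 0.41.

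C1qc, the C chain, had intensities of 462.1, 363.1 and 528.1 in Coco/KO and of 276.4, 316.4 and 376.2 in wild-type muscle. After normalization the Coco/KO arrays (8.89 to 9.10) all lay above the wild-type arrays (8.33 to 8.76), whereas the intensities overlapped. The log2 difference was 0.41 (SE 0.16), a 1.33-fold higher signal, and it was 0.27 with a modelled background. It was as large without Coco/KO 3 (0.46) and without Coco/KO 1 (0.42).

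The SD over the Coco/KO pools was 0.56 for C1qa, 0.22 for C1qb and 0.11 for C1qc, and over the wild-type pools it was 0.39, 0.46 and 0.22. These spreads were not tested against each other. Wild-type 2 was the lowest array for all 3 chains. The highest array was Coco/KO 3 for C1qa and C1qb and Coco/KO 2 for C1qc. Coco/KO 1 was low for C1qa alone, with a deviation of -0.64 from its group mean, against -0.22 for C1qb and -0.01 for C1qc.

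C3, the component on which the pathways of complement converge, ran the other way. Its intensities were 310.3, 113.0 and 471.0 in Coco/KO and 434.8, 499.2 and 434.2 in wild-type muscle. The intensities overlapped, since Coco/KO 3 lay above wild-type 1 and wild-type 3. The normalized wild-type arrays (8.89 to 9.19) all lay above the Coco/KO arrays (7.73 to 8.74), and the wild-type SD of 0.16 was smaller than that of Coco/KO (0.52). The log2 difference was -0.69 (SE 0.25), a 1.61-fold lower signal. Coco/KO 2 carried much of it, since it was -0.40 without that array. With a modelled background it was -0.40 as well.

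C3ar1, the receptor for the C3a fragment, was dim on 5 arrays. Its intensities were 22.2, 56.1 and 200.2 in Coco/KO and 23.7, 39.4 and 40.3 in wild-type muscle, and all 6 were detected. Coco/KO 1 was the lowest of all arrays and Coco/KO 3 by far the highest, so the groups overlapped. The log2 difference of 0.55 (SE 0.30) was 0.20 without Coco/KO 3, 0.90 without Coco/KO 1 and 0.10 with a modelled background.

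Fcgr3, the low-affinity activating IgG receptor, had the largest difference of these genes. Its intensities were 457.8, 511.1 and 1535 on the Coco/KO arrays and 231.6, 294.9 and 176.5 on the wild-type arrays, so the groups did not overlap on either scale. The log2 signal was 9.59 ± 0.67 (SD, n = 3) in Coco/KO and 8.17 ± 0.29 in wild-type muscle. The difference was 1.42 (SE 0.31), a 2.68-fold higher signal. It was 1.07 without Coco/KO 3 and 1.74 without Coco/KO 1, and the groups stayed apart in both cases. A higher difference was found for 12 of the 12135 genes tested, and nothing is read from this rank, because the genes were chosen on this contrast. Fcgr2b, Fcgr3 and Fcgr4 are related in sequence, and which of them the probes of a row can bind was not examined, so their values are uncertain in that respect.

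On the normalized log2 scale, among the 7 rows that passed the filter, Fcgr3 and C1qc had no overlap between groups and were higher in Coco/KO, and C3 had none and was lower. On the intensity scale the groups of C1qc and of C3 overlapped, and those of Fcgr3 and C1qb did not. Over all genes tested 6.16% were higher without overlap and 6.58% were lower without overlap, together 12.7%, and nothing is read from these counts either.

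The inhibitory receptor Fcgr2b was not detected on any array. Its intensities were 53.4, 41.4 and 133.9 in Coco/KO and 26.1, 30.1 and 36.3 in wild-type muscle, with every Coco/KO array above every wild-type array. On Coco/KO 3 its detection p was 0.172 at an intensity of 133.9, although 468 of the 535 rows within 10% of that intensity on the same array (87.5%) were detected. The deposited score and the intensity of this row therefore point different ways, and no fold is given. Fcgr1, the high-affinity IgG receptor, was at background, with intensities from 7.7 to 14.7 in Coco/KO and from 3.1 to 23.6 in wild-type muscle. It was detected on 1 array, wild-type 2, and no difference was measurable at this signal.

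Fcer1g, the gamma chain through which Fcgr1 and Fcgr3 signal, was either clearly detected or at background, and both cases occurred in each genotype. Its intensities were -6.9, -2.1 and 319.8 on the Coco/KO arrays and 93.5, -4.6 and 324.1 on the wild-type arrays. It was detected on Coco/KO 3, wild-type 1 and wild-type 3 and on none of the other arrays. Whether background here stands for absent RNA or for a transcript that the probes did not bind was not tested. The log2 difference of -0.64 (SE 0.81) has little meaning for such values: it was -1.47 without Coco/KO 3 and 0.031 without wild-type 3.

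Fcgr3 did not share this pattern, since it was clearly detected on all 6 arrays, including the 3 on which Fcer1g was at background. Tyrobp, a related adaptor of myeloid receptors, was also detected on every array, with intensities of 220.6, 400.5 and 854.9 in Coco/KO and 234.5, 223.2 and 286.4 in wild-type muscle.

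The pattern of Fcer1g was shared most closely by 1 other gene, a comparison added after these values were seen. Over the 6 arrays the row deposited as MNDA, a synonym of the interferon-inducible gene Ifi211, had the highest correlation with Fcer1g of all rows tested (Pearson r = 0.996, a description over 6 arrays). Its intensities were -15.7, -6.7 and 193.5 in Coco/KO and 57.0, -4.6 and 218.3 in wild-type muscle, with wild-type 1 between the bright arrays and those at background for both genes. Over all rows of the array, 82 were detected on exactly the same 3 arrays. Of these, Fcer1g (log2 range 2.87) and Ifi211 (2.68) were the 2 whose range over the arrays exceeded 2, and the next had a range of 1.59. Other rows also correlated closely with Fcer1g, among them Nmd3 (r = 0.990, log2 range 0.58) and Fos (r = 0.960). Fos had a wider range (3.12) than Fcer1g or Ifi211 and was not among the 82 rows.

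Ifi211 lies on chromosome 1 like Fcer1g, with 68 protein-coding genes between them in the reference annotation. The 28 tested rows between Fcer1g and Ifi211 had correlations with Fcer1g from -0.78 to 0.96 with a median of 0.02, given as a description over 6 arrays.

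**Figure D2:**
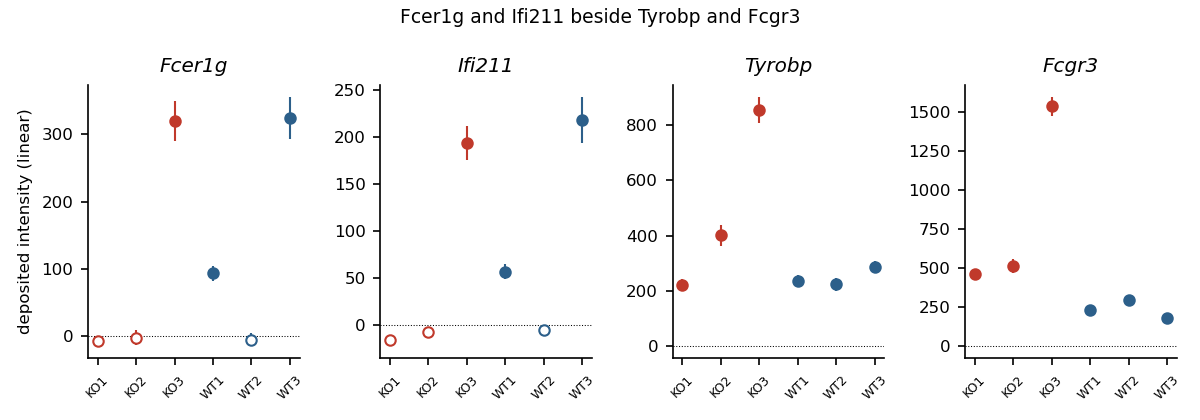
Deposited linear intensity (y axis, a separate scale per gene) of Fcer1g, Ifi211, Tyrobp and Fcgr3 on the Coco/KO (KO, red) and wild-type (WT, blue) arrays, with bead standard errors and open points where a row was not detected. Fcer1g and Ifi211 were detected on Coco/KO 3, wild-type 1 and wild-type 3 and were at background on the other arrays, whereas Tyrobp and Fcgr3 were detected on all 6.

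In whole muscle a higher signal can come from more cells of a type or from more RNA per cell, which cannot be told apart here. Macrophage markers other than these genes also lay higher in Coco/KO muscle. Of 17 such markers 15 were tested, 0 passed the adjusted threshold in limma and 7 had an unadjusted p below 0.05, against 8.21% of all genes. Of the 15, 14 lay higher in Coco/KO, against 50.3% of all genes, with a median log2 difference of 0.65, which was 0.33 without Coco/KO 3. Their summed normalized signal ranged from 6654 to 13830 on the Coco/KO arrays and from 4432 to 5324 on the wild-type arrays, and 0 of the 17 were undetected throughout. Nothing is read from the counts of markers, because the lists, like the members, were chosen with earlier results of these data known. The part of these markers in the differences above was not tested.

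Fcgr3 lay above all 15 macrophage markers in its difference, the highest of which was Mpeg1, a pore-forming protein of macrophages (1.06). The C1q chains and C3ar1 lay within the range of the markers, which began at -0.20 for the chemokine receptor Cx3cr1. The 4 brightest markers were the lysosomal membrane protein Laptm5 (0.71, SE 0.25, and 0.45 without Coco/KO 3), the protease Lgmn (0.51, SE 0.15), the protease Ctss (0.78, SE 0.50, and 0.12 without Coco/KO 3) and the mannose receptor Mrc1 (0.65, SE 0.25, and 0.40 without Coco/KO 3). Their limma adjusted p-values lay between 0.390 and 0.754. Over the 15 markers 0 turned sign without Coco/KO 3, and 10 moved by over 1.5 times.

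**Figure D3:**
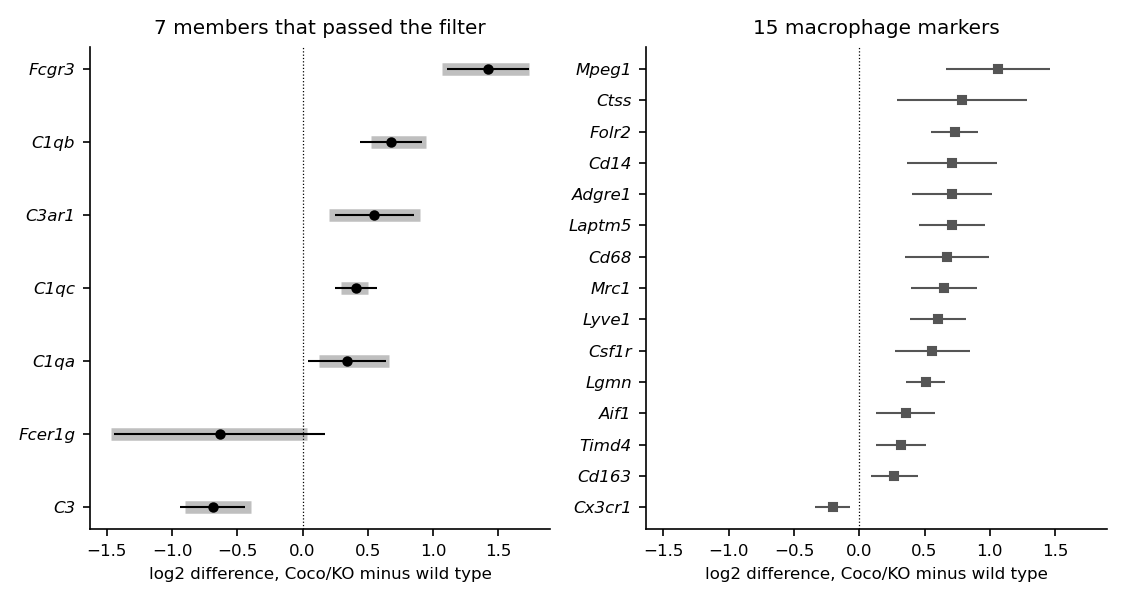
Log2 difference (x axis, Coco/KO minus wild type, bars are the standard error of the fit, n = 3 per group) of the 7 genes that passed the filter (left, grey bands span the values with 1 array left out) and of 15 macrophage markers (right). Fcgr3 at 1.42 lies above every marker, and C3 and Fcer1g lie below 0.

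Array by array, the C1q chains and the macrophage markers were alike in some pools and apart in others. On Coco/KO 3 the median deviation from the mean of the 6 arrays was 0.51 for the C1q chains and 0.74 for the markers. On Coco/KO 2 it was 0.34 for the chains and -0.06 for the markers, and on wild-type 1 it was 0.15 against -0.35. Coco/KO 3 was the highest array for 4 of the 7 genes, for 11 of the 15 macrophage markers (73.3%) and for 13.8% of all genes tested.

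**Figure D4:**
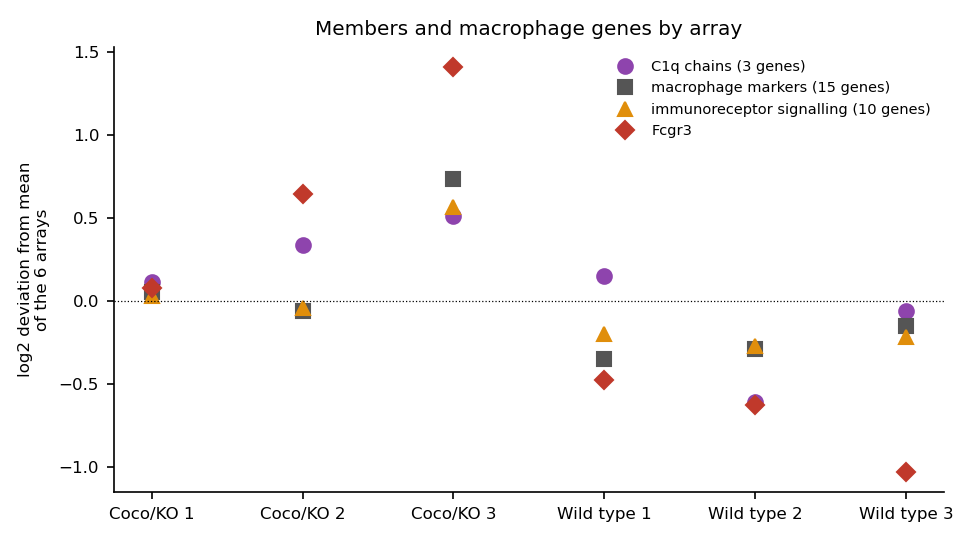
Median log2 deviation from the mean of the 6 arrays (y axis) of the 3 C1q chains, 15 macrophage markers and 10 immunoreceptor signalling genes, and the deviation of Fcgr3, for each array (x axis). All 4 were high on Coco/KO 3 and low on wild-type 2, and the chains lay above the markers on Coco/KO 2 and wild-type 1.

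Markers of other cells that bear Fc receptors or make complement differed from list to list in brightness and direction. Of these lists, from general leukocytes to endothelium, 0 genes passed the adjusted threshold in limma. The counts at an unadjusted limma p below 0.05 were 1 of 4 general leukocyte, 1 of 4 neutrophil and 2 of 4 adipocyte markers tested. They were 0 for the other lists, against 8.21% of all genes, and nothing is read from these counts. Of 6 general leukocyte markers 4 were tested and lay higher (median 0.44, and 0.68 without Coco/KO 1). These were Coro1a (0.61, SE 0.36), Arhgdib (0.27, SE 0.16), Cd52 (0.95, SE 0.20, limma adjusted p = 0.224) and Lcp1 (0.03, SE 0.20), while Ptprc and Cd53 were detected on no array. The 4 neutrophil markers tested ran both ways around a median of 0.63, with S100a8 at 0.61 (SE 0.75), S100a9 at 0.66 (SE 0.73), Retnlg at 1.5 (SE 0.51) and Camp at -1.38 (SE 1.16). The difference of Retnlg was thus larger than that of Fcgr3, and the summed signal of the list ranged from 6788 to 15390 in Coco/KO and from 1978 to 25530 in wild-type muscle. The negative difference of Camp rested on wild-type 1 (log2 signal 11.22), since the other arrays lay between 5.93 and 6.82. The part of neutrophil markers in the difference of Fcgr3 was not tested.

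Markers of mast cells, which also use Fcer1g, had a median of 0.05, with Cpa3 at 0.12 (SE 0.20), Gata2 at -0.02 (SE 0.30), Mcpt4 at -0.19 (SE 0.32) and Cma1 at 0.26 (SE 0.24). Among B cell markers Ms4a1 passed the filter (-0.28, SE 0.13) and Pax5 and Cd22 were detected on no array. Among T and NK cell markers Il2rb passed it (0.11, SE 0.14) and Cd3e, Cd4, Cd8a and Trac were detected on no array. Dendritic cell markers had 2 tested members, Cd209a (0.38, SE 0.26) and Siglech (-0.06, SE 0.18).

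Among cells that can make C3, fibroblasts were represented by 6 tested markers with a median of 0.15, the brightest being Dcn (-0.24, SE 0.13), Lum (0.25, SE 0.19), Col3a1 (0.15, SE 0.18) and Dpt (0.15, SE 0.31). The 4 adipocyte markers tested lay lower, as C3 did, with Adipoq at -1.08 (SE 0.47), Cidec at -1.16 (SE 0.44), Lep at -0.76 (SE 0.47) and Fabp4 at -0.46 (SE 0.23). Their median of -0.92 was -0.54 without Coco/KO 1. Their summed signal ranged from 1469 to 4114 in Coco/KO and from 3909 to 11430 in wild-type muscle. The median deviation of the adipocyte markers from the mean of the 6 arrays was lowest on Coco/KO 1 (-0.93) and highest on wild-type 2 (1.26). C3 was instead lowest on Coco/KO 2, and wild-type 2 was its lowest wild-type array. The part of the adipocyte markers in the difference of C3 was not tested. Hepatocyte markers had Apoa1 at -0.02 (SE 0.25), Hpx at 0.25 (SE 0.14) and Serpina1a at -0.47 (SE 0.29), with albumin (Alb) detected on no array. Endothelial markers had a median of -0.02, from Pecam1 (-0.14, SE 0.21), Emcn (-0.39, SE 0.20), Cdh5 (0.24, SE 0.46) and Tek (0.11, SE 0.22).

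Other genes of complement and Fc receptor biology were taken from 10 lists of 126 genes. Of these, 114 were in the table and 60 were tested. In limma 0 of 60 passed over all genes (adjusted p from 0.295 to 0.997), against 0.148% of all genes tested, and 10 had an unadjusted p below 0.05 (16.7%, against 8.21% of all genes), 5 higher and 5 lower. Their median log2 difference was 0.11. These counts are a description, because the lists were chosen with earlier results of these data known. Without Coco/KO 3 the difference turned sign in 9 of the 60 and moved by over 1.5 times in 18 others, and without Coco/KO 1 it turned sign in 3 and moved so in 21 others.

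The genes that start the classical and lectin pathways did not share the direction of C1q. All 4 that were tested lay below 0, with a median of -0.14, but C4a and Fcna differed by less than their standard errors. C2, the protease subunit of the C3 convertase, had log2 signals of 7.92, 8.42 and 8.22 in Coco/KO and of 8.94, 9.13 and 8.58 in wild-type muscle, without overlap. Its difference was -0.70 (SE 0.20, limma adjusted p = 0.351). C1s1, a protease of the C1 complex, differed by -0.16 (SE 0.15), C4a by -0.13 (SE 0.18) and the ficolin Fcna by -0.04 (SE 0.19). C1ra, the partner of C1s1, was detected on no array, and C4b had no row.

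Of the alternative and terminal components 6 were tested, 3 above and 3 below 0. Cfd, the adipocyte-derived factor D, differed by -0.81 (SE 0.30, limma adjusted p = 0.500). Properdin (Cfp), which stabilises the alternative convertase, had log2 signals of 8.71, 9.84 and 11.01 in Coco/KO and of 9.12, 9.13 and 9.51 in wild-type muscle. Its difference of 0.60 (SE 0.48) was 0.02 without Coco/KO 3, the array on which it was highest, and 1.17 without Coco/KO 1. Factor B (Cfb, 0.06, SE 0.20) and C8b (-0.18, SE 0.30) differed by less than their standard errors.

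The 7 complement regulators tested had a median of -0.04. The C1 inhibitor Serping1 differed by -0.17 (SE 0.27), the membrane inhibitors Cd59a and Cd59b by 0.26 (SE 0.32) and -0.04 (SE 0.19), and Cr1l by -0.04 (SE 0.18). Without Coco/KO 3 Serping1 and Cd59b turned to 0.04 and 0.01. Of the other complement receptors 4 were tested. Vsig4, a receptor of resident macrophages for C3 fragments, had log2 signals of 8.88, 8.45 and 9.25 in Coco/KO and of 8.08, 7.96 and 8.27 in wild-type muscle, without overlap. Its difference was 0.76 (SE 0.21, limma adjusted p = 0.351), opposite in sign to that of C3. Itgam, a chain of the receptor CR3, differed by 0.23 (SE 0.20), and Cd93 and Lrp1 by -0.28 (SE 0.26) and 0.02 (SE 0.24). The mean log2 signal of Itgam was 6.20, close to the group means of Fcgr1 (6.12 and 6.13), so its difference is uncertain.

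Of the other Fc receptors 4 were tested. Fcgr4, the neighbour of Fcgr3 and a further activating receptor that uses the gamma chain, had log2 signals of 6.49, 7.17 and 7.0 in Coco/KO and of 6.22, 6.69 and 6.39 in wild-type muscle, with overlap. Its difference was 0.45 (SE 0.21, limma adjusted p = 0.647). Fcgrt, the neonatal Fc receptor that recycles IgG and is made by many cell types, differed by -0.06 (SE 0.17), and Pigr and the mast cell chain Fcer1a by 0.13 (SE 0.21) and -0.16 (SE 0.25). Immunoglobulin chains, the ligands, had 3 rows in the table and 1 tested, Ighm (-0.23, SE 0.17).

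All 10 tested genes of immunoreceptor signalling lay above 0, with a median of 0.27 that was 0.13 without Coco/KO 3. Coco/KO 3 was the highest array for 8 of them. The adaptor Lat2 differed by 0.89 (SE 0.38), and by 0.39 without Coco/KO 3. Tyrobp differed by 0.68 (SE 0.34), and by 0.40 without that array. Nckap1l, a regulator of the leukocyte actin skeleton, differed by 0.65 (SE 0.21) and the phosphatase Ptpn6, which serves inhibitory receptors, by 0.21 (SE 0.17). None of the 10 passed in limma, and the lowest adjusted p was 0.312. At an unadjusted p below 0.05 the count was 3 of 10, against 8.21% of all genes, and nothing is read from it. The phagocyte oxidase genes tested were 4 above 0 with a median of 0.20, namely Cyba (0.16, SE 0.37) and Cybb (0.26, SE 0.17) of its membrane part and Ncf4 (0.22, SE 0.16) and Rac2 (0.19, SE 0.17) of its cytosolic part. Cyba turned to -0.17 without Coco/KO 3.

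The relatives of the C1q chains by their globular domain gave no common direction, with 6 of 12 tested genes above 0 and a median of -0.03. Col8a1, a short-chain collagen, had log2 signals of 9.19, 9.15 and 9.77 in Coco/KO and of 8.62, 8.64 and 8.57 in wild-type muscle, without overlap. It differed by 0.76 (SE 0.19, limma adjusted p = 0.299). Adiponectin (Adipoq) differed by -1.08 (SE 0.47), and by -0.61 without Coco/KO 1, and C1qtnf9 and Mmrn2 by -0.33 (SE 0.19) and -0.24 (SE 0.17). Receptors and bridging proteins for the clearance of dying cells, to which C1q contributes, had a median of 0.03 over 8 genes, with 0.20 for the kinase Axl (SE 0.17), -0.23 for Cd36 (SE 0.25), -0.10 for Mfge8 (SE 0.15) and -0.05 for Gas6 (SE 0.18).

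The genes most like the 7 members that passed the filter were named by the correlation of their 6 log2 values with the mean standardised profile of those members, as a description. The closest were Msn, an actin-membrane linker (Pearson r = 0.983), Selplg, the selectin ligand of leukocytes (0.980), Tmem158 (0.976), Eda2r (0.975), the transcriptional inhibitor Id2 (0.966), Cd83 of antigen-presenting cells (0.964), and Clec4n and Myo1g (0.960 each). Their log2 differences ran from 0.18 (SE 0.17) for Msn to 0.64 (SE 0.31) for Clec4n. The profile itself was highest on Coco/KO 3 (1.02) and lowest on wild-type 2 (-0.83). It did not separate the genotypes, since Coco/KO 1 (-0.29) lay below wild-type 1 (0.05) and wild-type 3 (-0.15). The profile also averages in C3 and Fcer1g, which lay lower in Coco/KO.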

How the data were processed

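Total RNA of whole soleus muscles was amplified with a biotin label and hybridised to a mouse Illumina beadchip, per the labels' protocols. The deposited table was exported from BeadStudio 3.2.6 with no normalization, per the file headers. It holds background-subtracted intensity values, bead standard deviations, bead counts, and a detection score that is a fraction (1 minus the detection p-value), deposited per array. The submitters' processing notes also name limma. A deposited value table of 46632 probes was not used, because no table used here pairs its probes with genes. Neither were 24 other columns of the scanner table.

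The lowest intensity was brought to 1 by adding 42.7, an offset of 16 was added, and log2 values were quantile normalized. Rows with a detection p below 0.05 on at least 3 of 6 arrays were tested (12611 rows), the brightest standing for a gene (12135 genes). Row names were updated with a RefSeq table (GRCm38.p6): 16339 of 34492 rows matched by symbol and 6476 by a synonym of 1 gene. Groups came from the sample titles. The genotype contrast was fitted in R 4.3.3 (limma 3.58.1), with Benjamini-Hochberg adjustment over all genes, and the code was tested on simulated data. The p-values set the genotype difference against the spread between arrays of a group, with variances moderated over all genes in limma. That spread holds array error as well as differences between pools, and the 3 arrays per group limit the precision. Bead standard errors are the bead standard deviation divided by the square root of the bead count.

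The members and lists were chosen with earlier results of these data known. All members were named, from each list the 4 tested genes of highest mean signal and any gene past the threshold, and the 8 genes most like the members. Genes named as undetected, as the highest or lowest of a list, or as like Fcer1g were chosen after their values were seen. The counts of genes that turned sign or moved without Coco/KO 1 or 3 were also added then. Alternatives covered normalization, offset, background, filter, variance model, array weights, replicate block, chip position, rows per gene and each array left out.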

Additional observations from a re-analysis of the deposited data

How the results depend on the processing

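The direction of the median difference of the members was kept in all 19 alternative settings, with values from 0.19 to 0.66, and from 0.20 to 0.66 with 1 array left out. Between 5 and 6 members lay above 0 in each of these settings. Not all of them could move a member: an intensity trend in the variance model and the replicate block leave every difference as it is. Averaging the rows of a gene, a stricter detection p and no filter also left the differences of the 7 members unchanged. The count of pathway genes called was 0 in all 19 and from 0 to 0 with 1 array left out. Fcer1g was the 1 gene among the 7 whose sign turned, to 0.0314 without wild-type 3, and leaving out single arrays gave values between -1.47 and 0.0314 for it. It gave no value with detection required on all 6 arrays. The number of genes called over the whole table, 18, became 5 without normalization between arrays, 11 with an offset of 50, 2 with modelled background, 9 with detection on all 6 arrays and 11 with chip position in the model, and it ranged from 5 (without Coco/KO 2) to 28 (without Coco/KO 1) with 1 array left out. The cause was not tested, except that detection on all 6 arrays tests fewer genes and leaving out an array uses fewer samples. With the replicate number as a block 13 genes were called. The numbers only name the samples: the deviations of same-numbered arrays from their group means correlated at -0.05, -0.29 and 0.09, and 0 of 3 arrays correlated best with its own number. Each number holds 1 array of each genotype, so the block could not change the difference of a member. The count of pathway genes called stayed 0 with the block. Dim rows such as C3ar1, Fcgr1 and Fcgr2b are limited by signal over background. The same holds for dim list genes such as Itgam, Rac2, Ms4a1, Fcer1a and Siglech, with mean log2 signals from 6.19 to 6.44.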
